A study of Mus musculus with 6 samples.

Results

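The genes described here are 10 markers of vascular endothelium, the cells that line blood vessels, followed in RNA-seq of the mouse submandibular salivary gland. They are Pecam1, Cdh5, Kdr, Flt1, Tie1, Tek, Emcn, Eng, Vwf and Esam. They were taken by gene symbol from a deposited table of 23366 genes, and all 10 were found there. The study compared p63 knockout mice with p63 wild-type mice, all adults of 12 weeks, with 3 libraries in each group. The transcription factor p63 (gene Trp63) marks basal cells of stratified and glandular epithelia. RNA came from isolated epithelial cells of the gland. How the knockout was made, which cells it affects, the strain and whether glands were pooled are not stated in the labels used here. The title of wild-type library 1 carries the letter C where the titles of the other wild-type libraries carry WT, and its genotype label is wild type like theirs. The labels do not say that the samples of a group came from separate mice, so the p-values reflect only the variation among these samples, which may be technical.

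Endothelial cells are told from other cells by receptors for vascular growth factors, by junction proteins that seal the vessel wall and by stored clotting proteins. VEGF-A acts through the receptor tyrosine kinases VEGFR2 (Kdr) and VEGFR1 (Flt1), and angiopoietins act through TIE2 (Tek) with its partner TIE1 (Tie1). Endoglin (Eng) helps endothelial cells bind ligands of the TGF-beta and BMP family. In salivary glands a capillary bed surrounds the acini and ducts and supplies the water of saliva.

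Values are in TPM, a transcript abundance corrected for gene length and scaled to 1000000 per library, so sequencing depth is unknown. Knockout library 3 stood apart from the others. It had 10634 genes at 1 TPM or more, against 11173 and 11235 in the other knockout libraries and 11129 to 11215 in wild-type libraries. Its 50 most abundant genes took 80.3% of the TPM, against 69.2% and 71.0% in the other knockout libraries and 73.3% to 75.9% in wild-type libraries. Trp63 measured 1.59, 0.816 and 1.76 TPM in knockout libraries 1, 2 and 3, against 3.48, 1.85 and 3.68 TPM in wild-type libraries 1, 2 and 3. The groups did not overlap, although knockout library 3 lay close to wild-type library 2. Trp63 missed the threshold of the test across all genes (limma adjusted p = 0.27). The 10 salivary epithelial genes listed, among them Epcam, Krt8, Krt18 and Aqp5, summed to 1090 to 2392 TPM in knockout libraries and 1437 to 1709 TPM in wild-type libraries. The 10 endothelial markers together made up 44.6, 38.0 and 25.8 TPM in knockout libraries 1, 2 and 3, and 39.5, 34.9 and 42.9 TPM in wild-type libraries 1, 2 and 3. The preparation thus held endothelial transcripts at a low level beside those of epithelium, and the summed marker level overlapped between the groups. In bulk RNA, fewer cells of a type and less RNA per cell cannot be told apart.

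The markers did not differ in a common direction. Emcn, Eng, Tek and Kdr were lower in every knockout library than in every wild-type library. Flt1 had its highest values in knockout libraries 1 and 2. Pecam1, Cdh5, Esam, Vwf and Tie1 had overlapping groups. None of the 10 passed the test over all genes in the limma fit at an adjusted p of 0.05. At an unadjusted p of 0.05, 4 did, with Emcn, Eng and Tek lower and Flt1 higher in the knockout. Of all 11268 genes tested, 0.39% passed at the adjusted threshold (0.319% lower and 0.071% higher in the knockout), and 15.4% at the unadjusted one (10.5% lower and 4.99% higher). Groups did not overlap for 4 of the 10 markers, all 4 lower in the knockout, where 15.6% of all genes tested were apart in that direction, 5.42% in the other and 21.1% in either. Tek, counted among these 4 and among the 3 lower at an unadjusted p, reached 1 TPM in wild-type libraries only and so passed the filter on low values through them. The median log2 fold change of the 10 markers was -0.047, beside 0.085 over all genes tested. It was -0.16 without knockout library 1, -0.19 without knockout library 2 and 0.15 without knockout library 3, beside -0.012, 0.0011 and 0.26 over all genes tested.

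**Figure D1:**
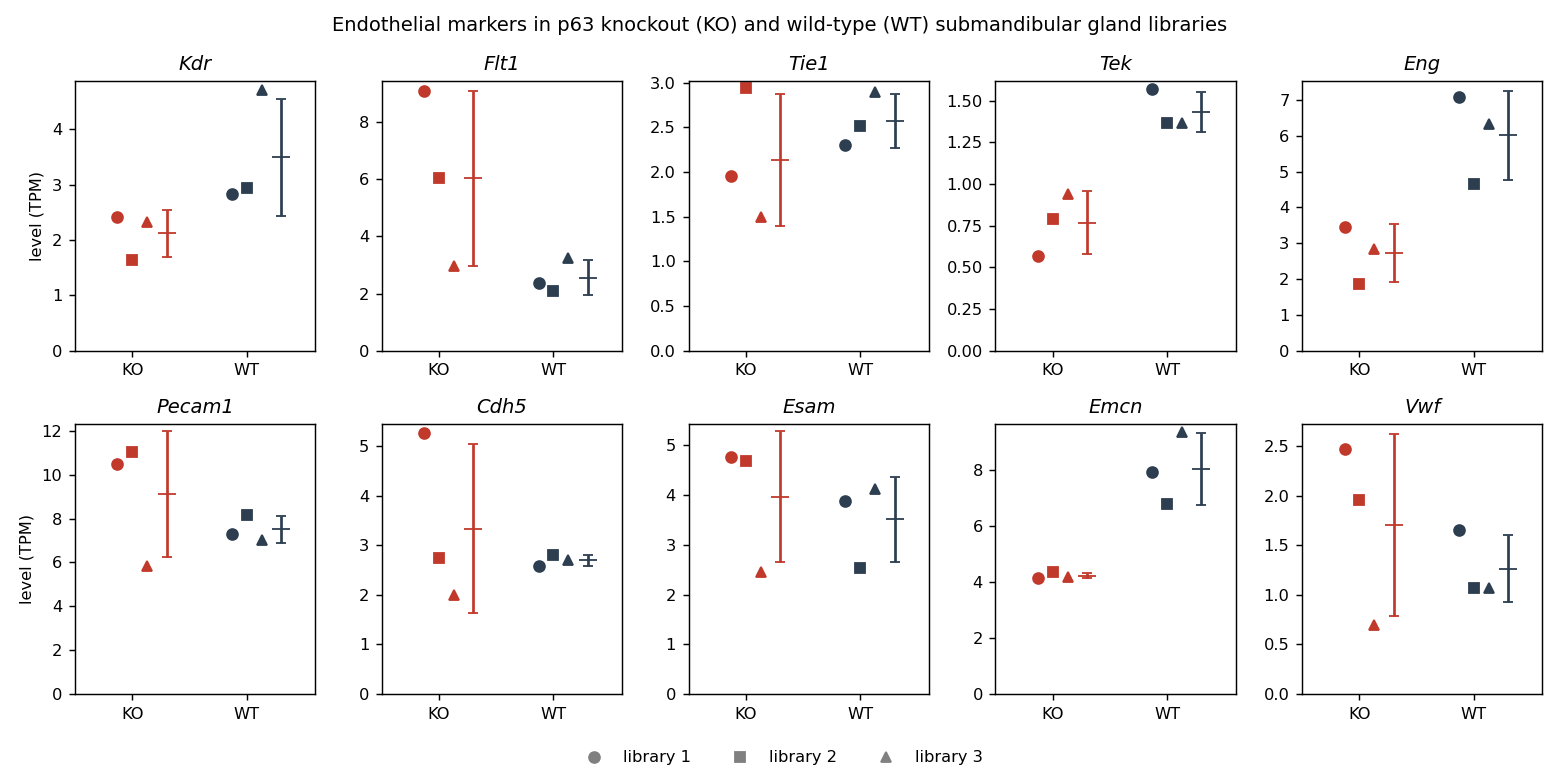
TPM of each of the 10 endothelial markers in the 3 p63 knockout (KO, red) and 3 wild-type (WT, dark) libraries, 1 panel per gene with its own axis from 0; symbols mark the library, and bars give the mean ± SD (n = 3). The groups are apart for Kdr, Tek, Eng and Emcn, and knockout library 3 is the lowest knockout library for Flt1, Tie1, Pecam1, Cdh5, Esam and Vwf.

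For 6 of the 10 markers, a RefSeq promoter window was at hand (build GRCm38.p6, while the expression values rest on mm9). The 250 bases before the start of transcription are shown for the 4 genes that were apart between the groups and for Flt1, which had the most positive log2 fold change. Capitals mark GGAA and its reverse complement TTCC, the core of sites for ETS factors, a family that includes the endothelial regulators Erg and Fli1. The windows are written 5′ to 3′ on the strand of the gene.
Emcn (chr3:137340828-137341077, plus strand): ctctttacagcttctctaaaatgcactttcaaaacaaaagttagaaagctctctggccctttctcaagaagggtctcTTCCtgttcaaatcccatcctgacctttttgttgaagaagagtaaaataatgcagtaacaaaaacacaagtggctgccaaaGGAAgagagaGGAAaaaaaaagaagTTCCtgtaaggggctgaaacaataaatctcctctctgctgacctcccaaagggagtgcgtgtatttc
Eng (chr2:32646345-32646594, plus strand): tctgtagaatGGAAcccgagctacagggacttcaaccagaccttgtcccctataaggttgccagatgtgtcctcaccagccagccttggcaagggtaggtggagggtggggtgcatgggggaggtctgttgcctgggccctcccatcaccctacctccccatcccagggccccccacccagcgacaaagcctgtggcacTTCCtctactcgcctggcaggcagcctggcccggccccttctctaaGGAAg
Tek (chr4:94739039-94739288, plus strand): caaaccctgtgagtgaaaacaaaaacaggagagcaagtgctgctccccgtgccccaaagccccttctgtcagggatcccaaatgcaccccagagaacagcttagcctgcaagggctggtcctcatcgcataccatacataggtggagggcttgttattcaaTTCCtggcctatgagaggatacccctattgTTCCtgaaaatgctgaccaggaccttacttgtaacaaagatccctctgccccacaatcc
Kdr (chr5:75978456-75978705, minus strand): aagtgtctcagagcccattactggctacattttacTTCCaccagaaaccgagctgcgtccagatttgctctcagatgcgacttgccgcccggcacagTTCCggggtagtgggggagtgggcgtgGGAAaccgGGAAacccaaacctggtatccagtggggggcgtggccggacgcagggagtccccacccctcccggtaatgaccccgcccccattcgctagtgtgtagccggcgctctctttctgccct
Flt1 (chr5:147726012-147726261, minus strand): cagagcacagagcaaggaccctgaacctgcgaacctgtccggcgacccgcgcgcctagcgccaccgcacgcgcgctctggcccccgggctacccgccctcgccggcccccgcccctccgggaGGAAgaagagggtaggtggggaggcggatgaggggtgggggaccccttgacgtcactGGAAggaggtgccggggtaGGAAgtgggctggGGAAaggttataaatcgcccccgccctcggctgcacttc

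The ETS core, counted on both strands, occurred 4 times each in the Emcn, Kdr and Flt1 windows, 3 times in that of Eng, 2 times in that of Tek and 7 times in that of Tie1, which is not shown. Among 32851 windows of the same length, 93.4% held at least 1 core, 33.4% held at least 4 and 3.82% held at least 7. By this count Flt1 had as many cores as Emcn and Kdr. The half-site of the p53 family, to which p63 belongs, was in none of the 6 windows and in 7.13% of all windows. The windows differed in base composition, with a GC content of 40.8% for Emcn and 70.4% for Flt1, and with 1 and 23 CpG dinucleotides. These are matches of letters, not measured binding sites.

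Among the receptors for VEGF, Kdr had a negative and Flt1 a positive log2 fold change, and neither passed the adjusted test. Kdr encodes VEGFR2, the main signalling receptor for VEGF-A. Kdr measured 2.41, 1.63 and 2.33 TPM in knockout libraries 1, 2 and 3, against 2.83, 2.93 and 4.72 TPM in wild-type libraries 1, 2 and 3. All knockout values lay below all wild-type values, although the nearest ones were close. Its log2 fold change was -0.51 (SE 0.24, 95% confidence interval -1.07 to 0.055, limma adjusted p = 0.35). Flt1 encodes VEGFR1, which binds VEGF-A tightly but signals weakly, and which is also made as a secreted form. Flt1 measured 9.07, 6.02 and 2.97 TPM in the knockout libraries, against 2.36, 2.08 and 3.24 TPM in the wild-type libraries. Knockout libraries 1 and 2 were above every wild-type library, and knockout library 3 lay within the wild-type range. The log2 fold change of Flt1 was 0.89 (SE 0.36, 95% confidence interval 0.065 to 1.72, limma adjusted p = 0.30). It was 0.58 without knockout library 1 and 1.25 without knockout library 3 (limma adjusted p = 0.60 and 0.0045), the second in a fit where 5127 of all genes passed. The table has 1 value per gene, so the membrane and secreted forms of Flt1 could not be separated.

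Within a library, the ratio of Flt1 to Kdr does not depend on how the library was scaled. This and the other ratios were chosen after the values had been seen and are given as a description. Flt1 stood at 3.76, 3.69 and 1.27 times the Kdr level in knockout libraries 1, 2 and 3, against 0.835, 0.708 and 0.686 times in wild-type libraries 1, 2 and 3. Every knockout library thus had more Flt1 than Kdr, and every wild-type library had less. Flt1 took 20.3%, 15.8% and 11.5% of the summed TPM of the 10 markers in the knockout libraries, against 5.98%, 5.95% and 7.56% in the wild-type libraries. On the log2 scale the Flt1 to Kdr ratio averaged 1.38 ± 0.89 in the knockout and -0.43 ± 0.15 in wild type (SD, n = 3 each).

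The ligands and co-receptors of these receptors were measured in the same libraries. Vegfa, which encodes VEGF-A, measured 46.6, 69.1 and 70.2 TPM in the knockout libraries, against 128, 189 and 170 TPM in the wild-type libraries. The groups were far apart, with a log2 fold change of -1.38 (SE 0.25), and it missed the threshold (limma adjusted p = 0.065). Nrp1, a co-receptor for VEGF-A and for semaphorins, measured 1.96, 1.67 and 3.52 TPM in the knockout libraries, against 6.34, 4.81 and 6.98 TPM in the wild-type libraries (log2 fold change -1.08, SE 0.27, limma adjusted p = 0.12). Vegfb, a ligand that binds VEGFR1 and not VEGFR2, averaged 19.2 ± 6.73 TPM in knockout libraries against 17.8 ± 0.82 TPM in wild-type libraries. Pgf, the placental growth factor and likewise a VEGFR1 ligand, averaged 2.36 ± 1.45 TPM in knockout libraries against 3.62 ± 1.07 TPM in wild-type libraries. Of the 13 listed ligands and co-receptors of the VEGF and angiopoietin systems, 12 were in the table and 7 could be tested. None passed the adjusted test, and 3 were lower at an unadjusted p of 0.05 (Vegfa, Vegfc and Nrp1; 10.5% of all genes tested). Of the 7 log2 fold changes, 6 were negative (4804 of all 11268 genes tested), with a median of -0.52.

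The angiopoietin receptors were among the lowest of the markers. Tek, which encodes the angiopoietin receptor TIE2, measured 0.570, 0.792 and 0.943 TPM in knockout libraries 1, 2 and 3, against 1.57, 1.36 and 1.36 TPM in wild-type libraries 1, 2 and 3. The groups did not overlap, and the log2 fold change was -0.46 (SE 0.17, 95% confidence interval -0.85 to -0.075, limma adjusted p = 0.26). At such low levels this value depends on the pseudocount of 1 TPM. With a pseudocount of 0.1 TPM, Tek stood at -0.84 and Kdr at -0.67, so their order was reversed. Tie1, an orphan receptor that pairs with TIE2, measured 1.95, 2.94 and 1.49 TPM in the knockout libraries, against 2.30, 2.52 and 2.90 TPM in the wild-type libraries. Knockout library 2 had the highest Tie1 value of all, and the groups overlapped (log2 fold change -0.21, SE 0.23, limma adjusted p = 0.63). Its value was -0.39 without knockout library 2 and -0.062 without knockout library 3. The ratio of Tek to Tie1 was 0.292, 0.269 and 0.631 in the knockout libraries, against 0.682, 0.542 and 0.471 in the wild-type libraries, so that knockout library 3 lay within the wild-type range. Angpt1, the ligand that activates TIE2, averaged 1.31 ± 0.70 TPM in knockout libraries against 1.44 ± 0.18 TPM in wild-type libraries, a difference smaller than the spread.

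Eng showed the most negative log2 fold change of the 10. Endoglin is a co-receptor that works with the type I receptor ALK1 (Acvrl1), and it is also found on fibroblasts and activated macrophages. Eng measured 3.47, 1.87 and 2.85 TPM in knockout libraries 1, 2 and 3, against 7.07, 4.65 and 6.33 TPM in wild-type libraries 1, 2 and 3. The highest knockout value lay below the lowest wild-type value. The log2 fold change was -0.92 (SE 0.26, 95% confidence interval -1.53 to -0.31, limma adjusted p = 0.16). Relative to Pecam1 in the same library, Eng stood at 0.330, 0.169 and 0.489 in the knockout, against 0.970, 0.568 and 0.899 in wild type, again without overlap. Acvrl1 averaged 1.87 ± 0.28 TPM in knockout libraries against 2.93 ± 1.12 TPM in wild-type libraries, with overlapping groups. Of the 13 listed receptors, SMADs, targets and ligands of this branch, 10 could be tested and none passed the adjusted test. Of these, 8 had positive log2 fold changes (6464 of all 11268 genes tested), among them Id3 (0.29) and Smad7 (0.40), both with overlapping groups. At an unadjusted p of 0.05, 1 was lower (limma; 10.5% of all genes tested), namely Id1, a transcriptional target of BMP signals. Groups were apart for 1 gene in each direction, Id1 lower and Tgfbr3 higher (15.6% and 5.42% of all genes tested). The median of this list was 0.24. The most abundant of the list, Tgfbr1, a type I receptor for TGF-beta, averaged 21.8 ± 8.29 TPM in knockout libraries against 18.1 ± 1.54 TPM in wild-type libraries.

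**Figure D2:**
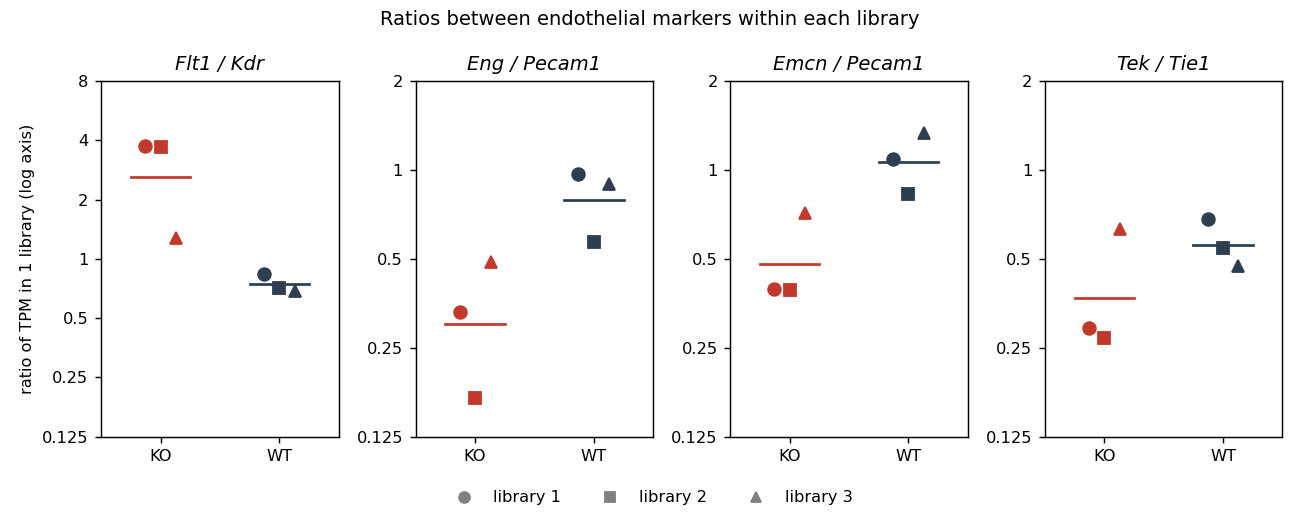
Ratios of TPM between pairs of endothelial markers within each library on log2 axes, for the 3 knockout (KO, red) and 3 wild-type (WT, dark) libraries; lines give the mean of the log2 ratios, and the axis of the Flt1 panel reaches higher than the others. Flt1/Kdr is 1.27 to 3.76 in the knockout and 0.686 to 0.835 in wild type, Eng/Pecam1 and Emcn/Pecam1 are lower in all knockout libraries, and Tek/Tie1 overlaps.

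The junction genes Pecam1, Cdh5 and Esam had overlapping groups and small positive log2 fold changes. Pecam1 encodes CD31, an adhesion protein of endothelial junctions that platelets and leukocytes also carry. It measured 10.5, 11.0 and 5.83 TPM in the knockout libraries, against 7.29, 8.18 and 7.04 TPM in the wild-type libraries. Knockout libraries 1 and 2 were above all wild-type libraries, and knockout library 3 was below them (log2 fold change 0.21, 95% confidence interval -0.43 to 0.85, limma adjusted p = 0.69). The value was 0.096 without knockout library 1, 0.063 without knockout library 2 and 0.47 without knockout library 3, where it passed (limma adjusted p = 0.029) in the fit that called 5127 genes. The adjusted p was 0.93 and 0.96 without knockout libraries 1 and 2. Cdh5 encodes VE-cadherin, the adherens junction protein of endothelium, and measured 5.26, 2.74 and 2.01 TPM in the knockout libraries, against 2.59, 2.81 and 2.70 TPM in the wild-type libraries. Knockout library 1 alone was above the wild-type range, and the log2 fold change was 0.16 (95% confidence interval -0.52 to 0.84), or -0.14 without that library and 0.39 without knockout library 3. Esam encodes an immunoglobulin-like protein of endothelial tight junctions and platelets. It measured 4.77, 4.69 and 2.45 TPM in the knockout libraries, against 3.87, 2.54 and 4.13 TPM in the wild-type libraries (log2 fold change 0.12, 95% confidence interval -0.55 to 0.78), and 0.36 without knockout library 3. The intervals of these 3 genes include 0 with room on both sides, so that a moderate difference either way is not excluded by these libraries.

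Emcn was even across the knockout libraries and lower in each of them than in any wild-type library. It encodes endomucin, a surface sialomucin of capillary and venous endothelium that limits leukocyte adhesion. Emcn measured 4.15, 4.33 and 4.18 TPM in knockout libraries 1, 2 and 3, against 7.93, 6.78 and 9.36 TPM in wild-type libraries 1, 2 and 3. Its SD within the knockout was 0.097 TPM, beside 1.29 TPM in wild type. The log2 fold change was -0.78 (SE 0.22, 95% confidence interval -1.28 to -0.28, limma adjusted p = 0.15), the lowest p of the 10 markers. Relative to Pecam1, Emcn stood at 0.395, 0.392 and 0.717 in the knockout libraries, against 1.09, 0.828 and 1.33 in the wild-type libraries. Vwf encodes von Willebrand factor, which endothelial cells and megakaryocytes store and release for clotting. It measured 2.47, 1.96 and 0.692 TPM in the knockout libraries, against 1.65, 1.07 and 1.07 TPM in the wild-type libraries. Knockout library 3 had the lowest Vwf value of all and knockout library 1 the highest (log2 fold change 0.21, 95% confidence interval -0.47 to 0.88, limma adjusted p = 0.71). The value was -0.0056 without knockout library 1 and 0.51 without knockout library 3.

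The order of the levels differed between the groups. In the knockout, Pecam1 was the most abundant marker at 9.13 ± 2.87 TPM, followed by Flt1, Emcn, Esam, Cdh5, Eng, Tie1, Kdr, Vwf and, at 0.768 ± 0.19 TPM, Tek. In wild type, Emcn led at 8.02 ± 1.29 TPM, followed by Pecam1, Eng, Esam, Kdr, Cdh5, Tie1, Flt1, Tek and, at 1.26 ± 0.34 TPM, Vwf (SD, n = 3 each). In the knockout the means of neighbours in this order differed by less than the larger of their SDs, except for Pecam1 and Flt1 and for Vwf and Tek. In wild type the exceptions were Pecam1 and Eng, Eng and Esam, and Flt1 and Tek.

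**Figure D3:**
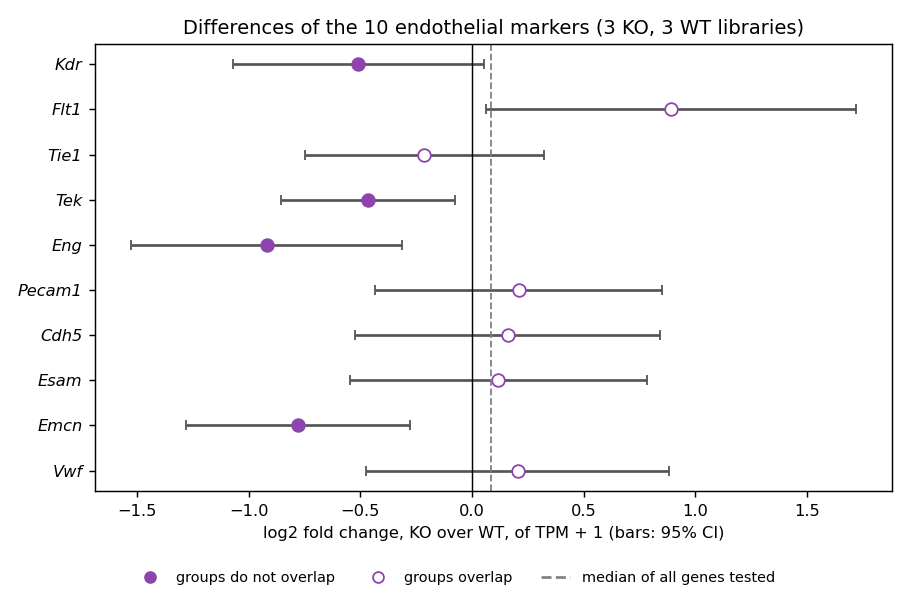
Log2 fold change of TPM + 1, knockout over wild type, for each of the 10 markers with its 95% confidence interval from limma (3 libraries each); filled points mark genes whose groups do not overlap, and the dashed line is the median of all genes tested, 0.085. Kdr, Tek, Eng and Emcn lie at -0.92 to -0.46 and Flt1 at 0.89, and the interval of Kdr includes 0 (-1.07 to 0.055). The intervals of Pecam1, Cdh5, Esam, Vwf and Tie1 include 0 with room on both sides.

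Other genes of endothelium had log2 fold changes of both signs. Of 35 listed pan-endothelial genes, 32 were in the table and 19 could be tested. None passed the adjusted test, and 4 were lower and none higher at an unadjusted p of 0.05 (limma; 10.5% and 4.99% of all genes tested). Of the log2 fold changes, 13 were negative and 6 positive, with a median of -0.30. Over all 11268 genes tested, 4804 were negative and 6464 positive, with a median of 0.085. Of the 19, 7 were apart with lower knockout values and 1 with higher ones, beside 15.6% and 5.42% of all genes tested. Among the 7 was Icam2, which reached 1 TPM in wild-type libraries only and so passed the filter through them. Summed over the 32 genes in the table, the list measured 64.3, 60.3 and 59.4 TPM in knockout libraries 1, 2 and 3. The sum was 84.0, 69.3 and 74.4 TPM in wild-type libraries 1, 2 and 3, so the groups did not overlap. Plvap, which forms the diaphragms of fenestrated capillaries, was the most abundant and measured 8.33, 8.69 and 11.4 TPM in the knockout libraries, against 18.0, 10.7 and 13.8 TPM in the wild-type libraries, with overlap. Cd34, a sialomucin of endothelium that stromal cells also carry, measured 5.11, 3.42 and 4.13 TPM in the knockout libraries, against 9.59, 7.24 and 7.89 TPM in the wild-type libraries, without overlap (log2 fold change -0.83, SE 0.23, limma adjusted p = 0.16). Gpihbp1, which carries lipoprotein lipase into capillaries, averaged 8.38 ± 2.65 TPM in knockout libraries against 4.71 ± 2.22 TPM in wild-type libraries, with a positive log2 fold change of 0.76 and overlapping groups. The gene of this list with the lowest p, chosen after its value was seen, was Ecscr, an endothelial surface protein, at 1.02, 1.19 and 1.27 TPM in the knockout libraries, against 3.65, 3.20 and 2.78 TPM in the wild-type libraries (log2 fold change -0.96, limma adjusted p = 0.073).

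Genes that tell vessel types apart were mostly below the filter. Of 17 arterial and venous genes, 5 could be tested, none passed the adjusted test or an unadjusted p of 0.05 (limma), and all 5 had overlapping groups. Ephb4, a receptor of venous endothelium, averaged 5.81 ± 1.57 TPM in knockout libraries against 6.26 ± 0.32 TPM in wild-type libraries, and its arterial ligand Efnb2 averaged 7.90 ± 3.15 TPM in knockout libraries against 5.53 ± 0.52 TPM in wild-type libraries. Of 6 lymphatic genes, 2 could be tested, and none passed the adjusted test. At an unadjusted p of 0.05, 1 was lower, namely Pdpn (limma; 10.5% of all genes tested). Lyve1, a hyaluronan receptor of lymphatic endothelium and of some macrophages, averaged 3.86 ± 2.30 TPM in knockout libraries against 2.01 ± 1.45 TPM in wild-type libraries. Prox1, the regulator that defines lymphatic endothelium, was at most 0.0495 TPM in any library.

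Markers of other stromal and blood cells were lower in the knockout in part of their lists. Of 12 pericyte and smooth muscle genes, 10 could be tested, 5 were apart with lower knockout values (15.6% of all genes tested), and their summed level was 181 to 280 TPM in knockout libraries and 438 to 474 TPM in wild-type libraries. The smooth muscle genes Acta2, Tagln and Myh11, which myoepithelial cells of the gland share, made up most of this sum. The pericyte genes Kcnj8, Abcc9 and Notch3 had positive log2 fold changes of 0.37, 0.11 and 0.40. Pdgfrb stood at -0.15 and Des at -0.22, and the groups overlapped for each of these genes. Rgs5 and Mcam of the same list stood at -0.60 and -1.68, with every knockout value below every wild-type value. Of 8 fibroblast genes, all 8 could be tested and had negative log2 fold changes (4804 of all 11268 genes tested). Of these, 4 were apart with lower knockout values (15.6% of all genes tested). Groups overlapped for Dcn (-0.47), Fbln1 (-0.20), Dpt (-0.16) and Pdgfra (-0.029). The sum of the list, most of it Dcn, was 134 to 280 TPM in the knockout, against 284 to 363 TPM in wild type. Col3a1, a fibrillar collagen, was the gene of the list that passed, and fell to 4.84, 1.05 and 4.96 TPM in the knockout libraries, against 41.4, 29.1 and 30.6 TPM in the wild-type libraries (limma adjusted p = 0.044). Of 9 macrophage and leukocyte genes, 8 could be tested, 5 were apart with lower knockout values (15.6% of all genes tested), and the sum was 75.7 to 117 TPM in the knockout, against 159 to 163 TPM in wild type. Of 8 platelet and megakaryocyte genes, 2 could be tested, and the sum was 6.04 to 8.56 TPM in the knockout, against 11.1 to 16.5 TPM in wild type. Within that list Pf4, a platelet chemokine that some macrophages also make, carried the lower sum, and measured 2.01 to 3.20 TPM in the knockout, against 7.55 to 14.2 TPM in wild type. Without Pf4 the list summed to 4.32, 6.55 and 2.84 TPM in the knockout libraries, against 2.30, 3.51 and 2.32 TPM in the wild-type libraries, and Itgb3, an integrin subunit of platelets, had a positive log2 fold change of 0.47 with overlapping groups. The alpha and beta globin genes Hba-a1, Hba-a2, Hbb-b1 and Hbb-b2 were listed at 0 in all libraries, while Alas2, which makes haem in red cell precursors, averaged 2.30 ± 1.32 TPM in knockout libraries against 4.36 ± 1.11 TPM in wild-type libraries. The part of these cell types in the values of Eng, Pecam1, Esam and Vwf was not tested.

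**Figure D4:**
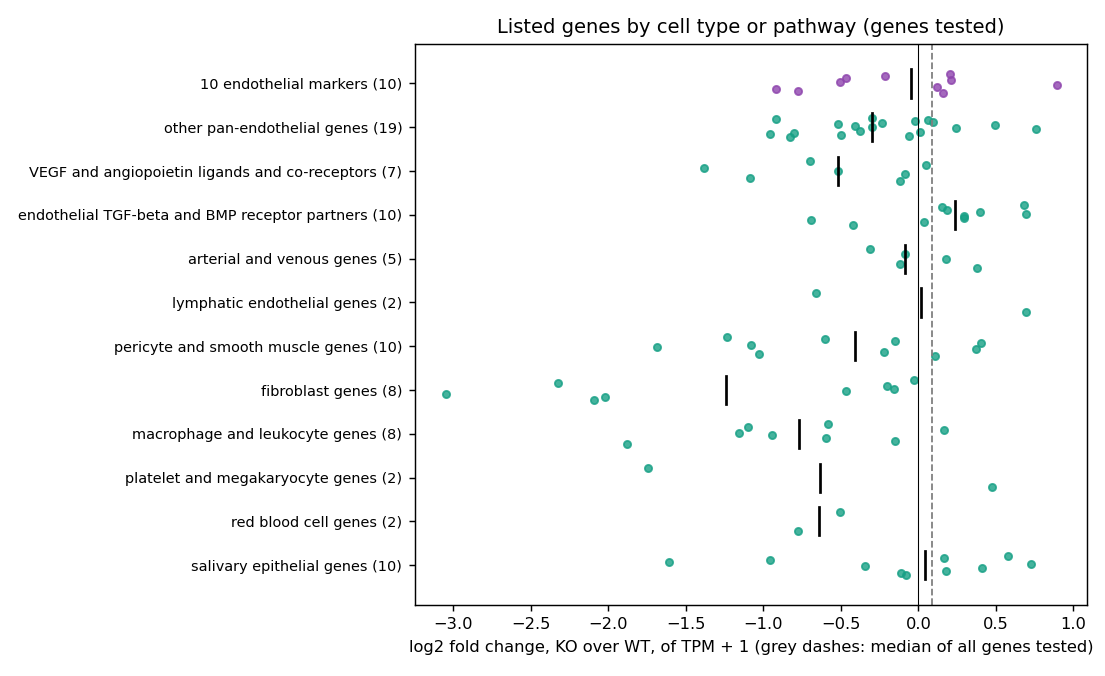
Log2 fold change of TPM + 1, knockout over wild type, of each tested gene in the 10 endothelial markers (purple) and in 11 other lists (green), with the number tested in parentheses; black bars are list medians and the grey dashed line is the median of all genes tested, 0.085. The endothelial markers spread from -0.92 to 0.89 around a median of -0.047, while the fibroblast genes reach -3.05 around a median of -1.24.

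Over the 6 libraries, the mean centred profile of the 10 markers was lowest in knockout library 3 and overlapped between the genotypes. Its log2 values were 0.17, -0.015 and -0.35 in knockout libraries 1, 2 and 3, and 0.084, -0.057 and 0.17 in wild-type libraries 1, 2 and 3. Single markers correlated with it at a Pearson r of 0.060 for Tek to 0.78 for Esam. The 5 tested genes outside the markers with the most similar profiles were Zfp955a, Tmx4, Aggf1, Rsrc2 and Rab2a, with a Pearson r of 0.98 to 0.99 over 6 libraries. Their groups all overlapped. These correlations share the libraries and their scaling and are given as a description.

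The differences between knockout and wild type depended on single knockout libraries for some markers. Emcn, Eng, Tek and Kdr kept negative log2 fold changes and Flt1 a positive one under every alternative that could be computed. For Emcn, Eng, Tek and Kdr, whose groups were apart, only the changes of scaling could have turned the sign, so the constant sign is no support. The ranges were -0.93 to -0.67 for Emcn, -1.14 to -0.74 for Eng, -0.84 to -0.27 for Tek, -0.69 to -0.32 for Kdr and 0.58 to 1.25 for Flt1. Without knockout library 3, 5 of the 10 markers passed the limma test, with Flt1 and Pecam1 higher and Emcn, Eng and Tek lower in the knockout, beside 5127 of all 11268 genes tested (3809 higher, 1318 lower). Emcn stood at -0.77 in that fit (limma adjusted p = 0.0094), Eng at -0.96 (adjusted p = 0.018) and Tek at -0.54 (adjusted p = 0.036). No marker passed when any other library was left out.

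**Figure D5:**
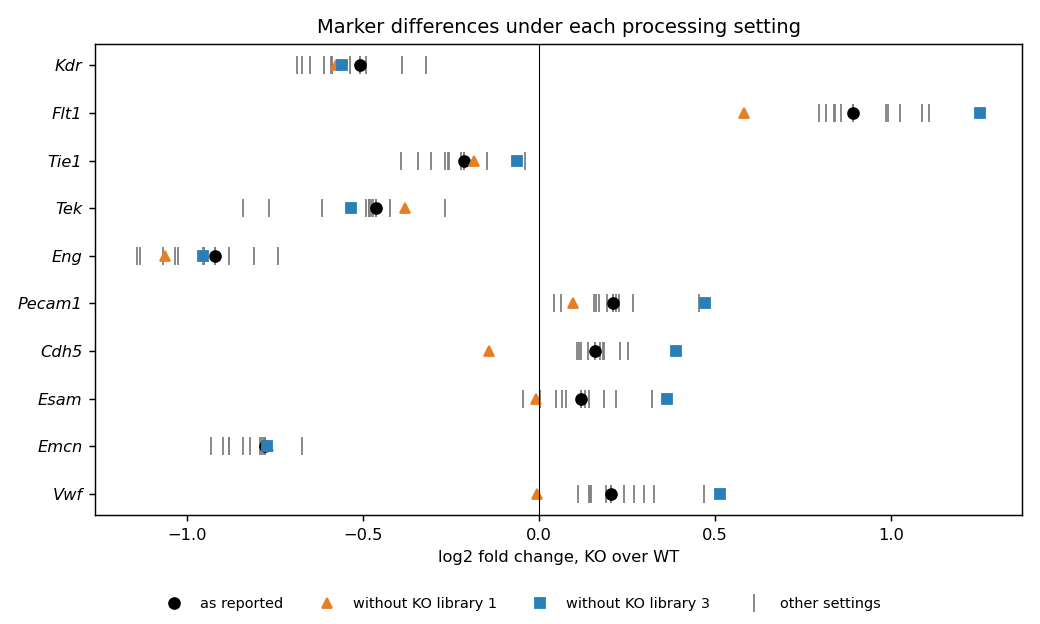
Log2 fold change of each marker, knockout over wild type, as reported (black), without knockout library 1 (orange), without knockout library 3 (blue) and under the other settings (grey ticks). Emcn, Eng, Tek, Kdr and Tie1 stay below 0 and Flt1 and Pecam1 above 0 in all of them, while Cdh5, Vwf and Esam lie below 0 without knockout library 1.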

How the data were processed

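RNA-seq values of 3 p63 knockout and 3 wild-type libraries were used. The table deposited by the authors holds TPM, obtained from raw counts through normalization to gene length and library size according to the labels. The submitters' processing notes name DESeq2 1.20.0, featureCounts 1.5.1, Bowtie2 2.2.6 and TopHat2 2.1.1, and the genome mm9. The annotation, gene lengths and strand setting are not given in the sources used here. Depth cannot be read from TPM, and counting errors are therefore not given.

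Of 23366 genes, 11268 reached 1 TPM in 3 or more libraries and were tested on log2(TPM + 1) with limma 3.58.1 (empirical Bayes moderation with trend, two-sided) in R 4.3.3. Fold changes on this scale understate those of low genes. Adjusted p-values are Benjamini-Hochberg over all these genes, with a threshold of 0.05. An exact two-sided permutation test of 3 libraries against 3 cannot go below 0.1, and gave 0.1 for Emcn, Eng, Tek and Kdr and 0.2 for Flt1. The markers and all gene lists were chosen with earlier results of these data known. Named genes were the 10 markers, up to 4 abundant genes of each list and any that passed. Any other gene was picked with its values in view. The 5 most similar profiles were ranked by Pearson r with the mean centred marker profile. A simulation with known changes was used to test the procedure. It drew every value independently, without shifts shared by a whole library. It therefore cannot show how the procedure handles a library that stands apart. Promoters are from RefSeq (GRCm38.p6). Python 3.11.15 with matplotlib 3.10.9 drew the figures.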

Additional observations from a re-analysis of the deposited data

How the results depend on the processing

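The alternatives were 17 settings of pseudocount, filter, scaling, moderation, weights, replicate block and libraries. None of the 10 markers passed limma's adjusted test as reported (4 at an unadjusted p under 0.05), nor in 15 of these settings. With array weights 4 passed (1 higher, 3 lower), and leaving out each library in turn gave 0 to 5. The count over all genes, 44 as reported, was 25 with a pseudocount of 0.1 TPM, 11 with no filter, 29 with a filter of 5 TPM, which kept 2 of the markers, 72 under quantile normalization and 4822 with array weights, and it ranged from 0 to 5127 when 1 library was left out. It was 0 without wild-type library 2 and without wild-type library 3, with 1024 and 1020 genes at an unadjusted p under 0.05. With 1 library left out, log2 fold changes ranged from -0.14 to 0.39 for Cdh5, -0.0056 to 0.51 for Vwf and -0.047 to 0.36 for Esam. They turned negative without knockout library 1 (Esam -0.0081), and for Esam also without wild-type library 2. The causes were not tested. Scaling moved the median of all genes from 0.085 to between 0.011 and 0.035.

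The labels give no shared replicate numbers and do not say what the numbers at the start and end of the titles stand for. As a replicate block, libraries whose titles end in neighbouring numbers were paired. The numbers that open the titles lie closest together in the same pairs. The fit as reported used no pairing. Deviations of paired libraries from the group means correlated at 0.17, 0.23 and 0.077, each knockout library highest with its own neighbour. This is a hint and not a design. With this block 31 genes and 0 markers passed (3 markers at an unadjusted p under 0.05).

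With the sum of the other 9 markers as denominator, an alternative chosen after seeing the data, the log2 difference of the ratios was 1.42 for Flt1 (1.82 relative to Kdr), -1.14 for Eng (-1.39 relative to Pecam1) and -0.91 for Emcn (-1.14 relative to Pecam1). With 3 libraries a group, differences within the 95% intervals of Pecam1, Cdh5, Esam, Vwf and Tie1 could not be detected.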
